A study of Mus musculus with 2 samples.

Results

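The genes described here are the ligands, receptors, antagonists, SMAD proteins and direct targets of the TGF-β, activin and BMP pathways. They were measured in primary mouse neonatal ventricular cardiomyocytes (mNVCM) treated with doxorubicin (Dox), an anthracycline that damages DNA. The 47 genes were listed by name, and each was given every probe set whose annotation names that gene alone. Of these, 46 genes were measured, by 97 probe sets, among 18193 genes in all. *Gdf15* was not analysed here. The genes were listed with earlier results of these arrays known.

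One array was made for each of 2 conditions, Dox and hAFS-CMHypo + Dox. hAFS-CMHypo is medium conditioned under hypoxia by human amniotic fluid-derived stem cells, which were sorted for c-kit and pooled from several donors, and it carries the factors that they secrete. Both arrays hold RNA of cultured heart cells from C57BL6/J mice at 2 days after birth, kept for 48 to 72 h in medium with serum. Cells of both conditions were then kept for 1 h in 0.5% serum and received 1 μM Dox, and those of hAFS-CMHypo + Dox were pre-incubated with the conditioned medium for 3 h. The labels give 6 h of Dox for hAFS-CMHypo + Dox and 21 h for Dox, whereas the methods of the paper state the shorter time for both. If the labels hold, the pre-incubation and the hours of Dox cannot be told apart in any value below. No untreated array was used here. With 1 array per condition there is no replicate error and no test, and precision is limited by the number of arrays.

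In this pathway, a ligand dimer joins type II and type I receptors, and the type I receptor phosphorylates receptor SMADs, which enter the nucleus with SMAD4. TGF-β and activin act mainly through SMAD2 and SMAD3, and BMPs through SMAD1 and SMAD5. Inhibin, follistatins, noggin and gremlin restrain ligands outside the cell, and SMAD6, SMAD7, SKI proteins and SMURF ligases restrain the signal inside it. In the heart TGF-β is known for matrix production by fibroblasts, and BMP10 for growth of the developing ventricle.

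All values are log2 expression values made by the authors with RMA, and a log2 ratio is hAFS-CMHypo + Dox minus Dox, so that 1 stands for 2-fold. Probe sets are groups of short probes against parts of a transcript. A gene with several was read at its brightest, meaning that with the largest mean of the arrays. Probe sets bind with different strength, so levels of different pathway genes were not ranked against each other. The values of each array ran from about 2.4 to about 15, with a median of 5.10 and a 25th percentile of 3.80 over both. As a yardstick, an SD of 0.21 was found among the log2 ratios of probe sets that share a gene. Only probe sets with an array at or above the median of all values were used. Of the 9010 genes with several probe sets, 5299 had several at that level. This SD is called the probe-set SD below and holds no variation between cultures. Genes below that level, such as *Nog*, were counted against it too, although it was not measured for them.

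*Fstl3* and *Inha*, which code for restrainers of activin, were higher with hAFS-CMHypo + Dox by 2-fold or more, and *Acvr1b* and *Smad3*, which code for an activin receptor and its SMAD, by 1.5-fold or more. *Bmp10* was lower by 1.5-fold or more. At 2-fold, 2 of the 46 genes were higher (4.35%), against 0.506% of all genes, and 0 were lower, against 0.214% of all genes. At 1.5-fold, 4 were higher (8.70%), against 2.32% of all genes, and 1 was lower (2.17%), against 1.52%. Beyond the probe-set SD, 16 were higher (34.8%) against 17.5% of all genes, and 7 were lower (15.2%) against 15.5%. The median log2 ratio was 0.11 over the 46 genes and 0.0058 over all genes. The study itself names *Inha* among its up-regulated genes from these arrays, so its place in these counts is not independent evidence of direction. The 46 genes were listed with earlier results of these arrays known, so the counts of the others are not independent evidence either.

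**Figure D1:**
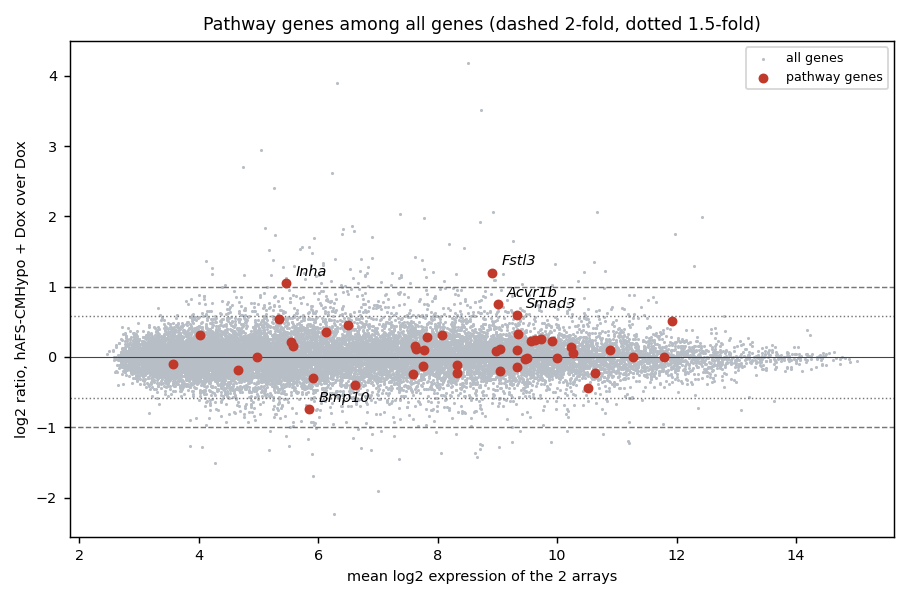
Log2 ratio (hAFS-CMHypo + Dox over Dox, vertical axis) of each gene against the mean of its 2 log2 values (horizontal axis), with 1 point per gene. The 46 pathway genes are red and the other genes grey, dashed lines mark 2-fold and dotted lines 1.5-fold. *Fstl3* and *Inha* lie above the upper dashed line and *Bmp10* below the lower dotted line.

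*Fstl3* codes for follistatin-like 3, a secreted protein that binds activin and myostatin and keeps them from their receptors. Its value was 9.51 on the hAFS-CMHypo + Dox array and 8.31 on the Dox array. The log2 ratio of 1.20, or 2.30-fold, ranked 55 from the top among 18193 genes, and only 1 probe set measured it. The values stood at percentiles 89.2 and 81.1 of all probe sets on their arrays.

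*Inha* codes for the inhibin α subunit, which pairs with an activin β subunit to form inhibin, an antagonist of activin. Its value was 6.00 with hAFS-CMHypo + Dox and 4.94 with Dox, a log2 ratio of 1.05, or 2.08-fold, from its single probe set. It ranked 82 from the top. The Dox value stood at percentile 47.7 of that array, below the median of all probe sets. The β subunits that pair with it, *Inhba* and *Inhbb*, had log2 ratios of 0.11 and 0.11 at their brightest probe sets, within the probe-set SD. Their other probe sets gave -0.34 for *Inhba*, below the median of all values, and -0.39 for *Inhbb*, beyond that SD on the other side of 0.

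*Acvr1b* codes for ALK4, the type I receptor of activin. Its value was 9.39 with hAFS-CMHypo + Dox and 8.64 with Dox, a log2 ratio of 0.75, or 1.68-fold. Its dimmer probe set gave 4.95 and 5.00, both below the median of all values, and their log2 ratio was -0.05.

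*Smad3* codes for a receptor SMAD of TGF-β and activin. It had 9.63 with hAFS-CMHypo + Dox and 9.03 with Dox at the brightest probe set, a log2 ratio of 0.60, or 1.51-fold, just past the milder threshold. The other probe sets gave 5.74 against 5.22 and 5.23 against 5.00, with log2 ratios of 0.52 and 0.23. None of the 3 was lower with hAFS-CMHypo + Dox. Just inside the same threshold lay *Acvrl1* at 0.54 and *Bmpr2* at 0.52.

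*Bmp10* codes for a BMP that heart muscle cells secrete. Its value was 5.49 with hAFS-CMHypo + Dox and 6.22 with Dox, a log2 ratio of -0.74, so that Dox was 1.67-fold above hAFS-CMHypo + Dox at its only probe set. It ranked 134 from the bottom among all genes. *Bmp7*, a related ligand made by many tissues, was lower at each of its 3 probe sets. Its values were 6.42 against 6.83 at the brightest probe set, 5.85 against 6.63 at the next and 5.46 against 5.87 at the last. The log2 ratios were -0.40, -0.78 and -0.41, so that the size depends on the probe set and the direction does not. In bulk RNA, fewer cells of a type and less RNA per cell cannot be told apart. Beside *Bmp10*, all 10 cardiomyocyte markers had log2 ratios below 0, from -0.57 to -0.02 with a median of -0.13. Among all 18193 genes, 8869 lay below 0. Of the 10 markers, 8 lay within the probe-set SD and 2 were lower beyond it (20%, against 15.5% of all genes). The part of these markers in the value of *Bmp10* was not tested.

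Promoter windows are shown for the genes past 1.5-fold whose listed start is also the start of the gene, as these are the genes that the values turn on. They come from RefSeq on GRCm38.p6 and run from 250 bases before to 50 after the start. Of the 47 listed genes, 35 had a window in that table. The window of *Inha* belongs to a start 532 bases inside the gene and is not printed. Capitals mark the 5-letter SMAD element CAGAC or its reverse complement, and the 6-letter element GGCGCC of BMP-responsive genes.
Fstl3, chr10:79777024-79777323, plus strand: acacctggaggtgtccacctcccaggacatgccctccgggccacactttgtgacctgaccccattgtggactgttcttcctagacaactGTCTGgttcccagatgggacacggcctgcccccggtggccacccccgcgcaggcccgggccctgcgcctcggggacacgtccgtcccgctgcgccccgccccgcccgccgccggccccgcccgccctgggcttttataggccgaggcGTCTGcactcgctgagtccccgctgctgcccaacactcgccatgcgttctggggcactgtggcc
Acvr1b, chr15:101173822-101174121, plus strand: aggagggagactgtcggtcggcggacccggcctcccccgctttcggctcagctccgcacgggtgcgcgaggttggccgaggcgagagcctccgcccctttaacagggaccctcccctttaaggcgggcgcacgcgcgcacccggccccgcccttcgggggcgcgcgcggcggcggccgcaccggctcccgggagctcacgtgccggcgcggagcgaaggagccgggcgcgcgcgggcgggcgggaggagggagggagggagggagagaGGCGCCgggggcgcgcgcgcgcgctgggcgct
Smad3, chr9:63757945-63758244, minus strand: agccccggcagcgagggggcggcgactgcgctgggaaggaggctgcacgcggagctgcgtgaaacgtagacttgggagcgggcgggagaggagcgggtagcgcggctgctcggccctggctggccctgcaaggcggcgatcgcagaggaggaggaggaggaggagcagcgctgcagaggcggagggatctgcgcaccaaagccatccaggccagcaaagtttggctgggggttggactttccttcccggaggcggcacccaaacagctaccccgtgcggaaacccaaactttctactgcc
Bmp10, chr6:87428744-87429043, plus strand: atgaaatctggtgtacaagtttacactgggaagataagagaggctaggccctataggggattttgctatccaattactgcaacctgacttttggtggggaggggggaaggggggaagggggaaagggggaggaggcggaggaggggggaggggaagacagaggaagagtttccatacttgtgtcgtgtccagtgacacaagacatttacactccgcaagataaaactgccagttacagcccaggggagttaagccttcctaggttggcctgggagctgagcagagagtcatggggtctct
The window of *Fstl3* holds 2 SMAD elements, which begin 161 and 14 bases before the start. That of *Acvr1b* holds 1 GGCGCC, beginning at base 19 after the start. The windows of *Smad3* and *Bmp10* hold no letters of either kind, which says only that these letters are not in those windows. Both strands were read. CAGAC is common, as 49.6% of all 32851 windows and 51.1% of the 45 windows of pathway genes hold it. GGCGCC was in 11.9% of all windows and in 24.4% of those of pathway genes. Some genes have several windows, and GC content was not matched between the groups, so these shares are a description. The cAMP element TGACGTCA (1.79% of all windows) and the NF-κB cores GGGACTTTC and GGGAATTTC (0.612%) were in 0 of the 45. The shorter TGACG, which also lies within the cAMP element, was in 20.8% of all windows and 13.3% of the 45.

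Of 13 ligands measured, 3 were higher (23.1%, against 17.5% of all genes) and 5 lower (38.5%, against 15.5%) beyond the probe-set SD, and their median log2 ratio was 0. *Tgfb1*, a TGF-β made by many cell types, had 6.72 with hAFS-CMHypo + Dox against 6.27 with Dox, a log2 ratio of 0.46. Its relatives *Tgfb2* and *Tgfb3* had -0.23 each. The 4 probe sets of *Tgfb2* ran from -0.23 to 0.16, so that its direction depends on the probe set.

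Among the BMP ligands, *Bmp2* was higher at 6.31 against 5.95, a log2 ratio of 0.35. *Bmp6*, a ligand known for iron regulation, had 7.47 against 7.71, a log2 ratio of -0.24. *Bmp4*, which acts in heart development, had -0.11, and *Bmp5* had the same value on both arrays, below the median of all probe sets. *Gdf11*, a ligand close to myostatin, had 0.15. Thus *Bmp6*, *Bmp7* and *Bmp10* lay below 0 beyond the SD and *Bmp2* above it.

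**Figure D2:**
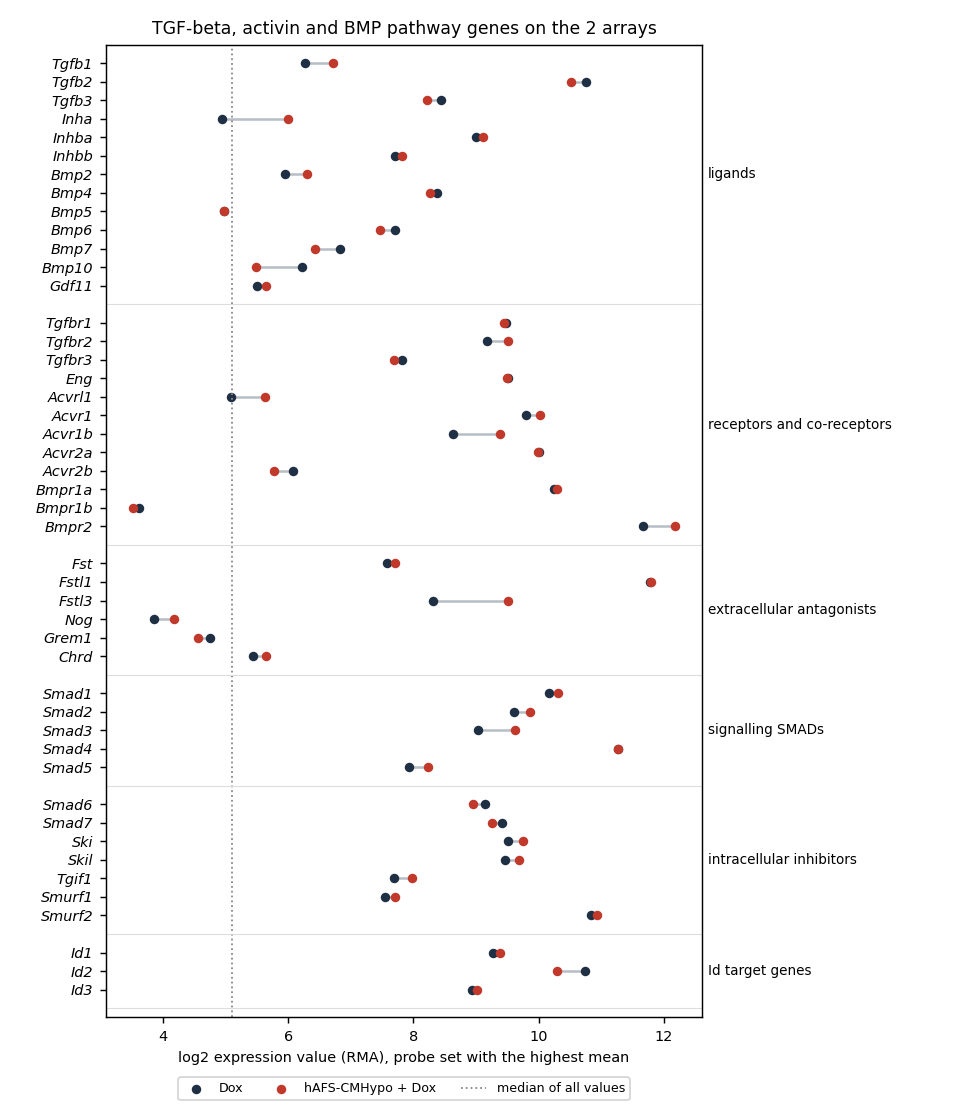
Log2 expression values (RMA, horizontal axis) of the 46 pathway genes with Dox (dark points) and with hAFS-CMHypo + Dox (red points), 1 array each, grouped by role. A dotted line marks the median over all probe sets, 5.10. The widest gaps between the points are those of *Fstl3* and *Inha*, and *Bmp10* has the widest gap with the red point on the left.

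Of the 12 receptors and co-receptors, 5 were higher (41.7%, against 17.5% of all genes) and 1 was lower (8.33%, against 15.5%) beyond the probe-set SD, with a median log2 ratio of 0.02. *Bmpr2*, the type II receptor of BMPs, had 12.18 with hAFS-CMHypo + Dox against 11.66 with Dox, a log2 ratio of 0.52. Its other probe sets gave 0.30 and, at 4.66 against 5.15, -0.49. *Bmpr2* therefore differed in sign and by 1.00 between probe sets, the widest range among the 24 genes that had several probe sets with an array at or above the median. *Acvrl1* codes for ALK1, an endothelial receptor that binds BMP10. It had 5.62 against 5.08, or 0.54 in log2 ratio, and 0.06 at a probe set below the median.

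*Tgfbr2*, the type II receptor of TGF-β, had 9.50 against 9.17, a log2 ratio of 0.33, and 0.30 at another probe set. *Acvr1*, a type I receptor of BMPs, had 0.23, with a ratio near 0 at its next probe set. *Acvr2b*, a type II receptor of activin, was lower, at 5.77 against 6.07 and 5.64 against 5.92, with log2 ratios of -0.31 and -0.28. The other type II receptor of activin, *Acvr2a*, had -0.02. The type I receptors *Tgfbr1* and *Bmpr1a* and the co-receptors *Tgfbr3* and *Eng* had log2 ratios from -0.13 to 0.06. *Bmpr1b*, another type I receptor of BMPs, lay below the 25th percentile on both arrays, where signal and background are hard to separate.

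Of the 6 extracellular antagonists, 2 (*Fstl3* and *Nog*) were higher (33.3%, against 17.5% of all genes) and 0 lower (15.5% of all genes) beyond the probe-set SD, with a median log2 ratio of 0.16. The relatives of *Fstl3* had smaller ratios. *Fst*, which codes for follistatin and binds activin as well, had 7.70 with hAFS-CMHypo + Dox against 7.58 with Dox, or 0.12 in log2 ratio (-0.02 at another probe set). *Fstl1*, a secreted glycoprotein of the heart that is named for its likeness to follistatin, had 11.79 against 11.78, a log2 ratio near 0. The BMP antagonist *Chrd* had 0.21. *Nog* (0.32) and *Grem1* (-0.19), which also bind BMPs, had values below the median of all probe sets on both arrays.

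Of the 5 signalling SMADs, 3 were higher beyond the probe-set SD and 0 were lower, against 17.5% and 15.5% of all genes, with a median log2 ratio of 0.26. Beside *Smad3*, *Smad2* had 9.86 against 9.60 and 6.53 against 6.10, log2 ratios of 0.26 and 0.42. Of the BMP SMADs, *Smad5* had 0.31 at the brightest probe set and 0.06 at the lowest of 3, and *Smad1* had 0.14, with 0.38 and 0.27 at its other probe sets. All 11 probe sets of *Smad1*, *Smad2*, *Smad3* and *Smad5* had log2 ratios above 0. *Smad4*, the partner that both branches share, had 11.26 against 11.27, and its 3 probe sets ran from -0.07 to 0.09.

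Of the 7 inhibitors inside the cell, 3 were higher (42.9%, against 17.5% of all genes) and 0 lower (15.5% of all genes) beyond the probe-set SD, with a median log2 ratio of 0.16. The SKI family genes *Ski* and *Skil* and the homeobox repressor *Tgif1*, whose products repress SMAD-driven transcription, had log2 ratios of 0.24, 0.23 and 0.28. The other probe sets of *Ski* and *Skil* gave 0.27 and 0.43. The inhibitory SMAD genes lay below 0, as *Smad6* had 8.94 against 9.14, a log2 ratio of -0.20, and *Smad7* had 9.26 against 9.41, or -0.15, with -0.35 at its other probe set. The first lay within the probe-set SD, as did the second at the brightest probe set. *Smurf1* and *Smurf2*, ubiquitin ligases for SMADs and receptors, had 0.16 and 0.09.

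*Id1*, *Id2* and *Id3* code for inhibitors of helix-loop-helix factors and are direct targets of BMP signals. *Id2* had 10.29 with hAFS-CMHypo + Dox against 10.74 with Dox, and 9.65 against 10.00 at its next probe set. These are log2 ratios of -0.44 and -0.35, and its last probe set, below the median, had -0.16. *Id1* and *Id3* had 0.10 and 0.08, within the SD. *Id2* alone of the 3 was lower beyond that SD.

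Agreement between probe sets bears on how far each value can be read. Of the 24 genes with several probe sets at or above the median on the higher array, 18 had log2 ratios of 1 sign and 6 had both signs. This split was not counted over all genes, so it only describes the pathway genes. The range between such probe sets of a gene had a median of 0.16. Another 15 genes, *Fstl3*, *Inha* and *Bmp10* among them, had a single probe set, so that their values have no such check. The remaining genes, *Acvr1b* among them, had several probe sets but not several at that level, and have no such check either.

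**Figure D3:**
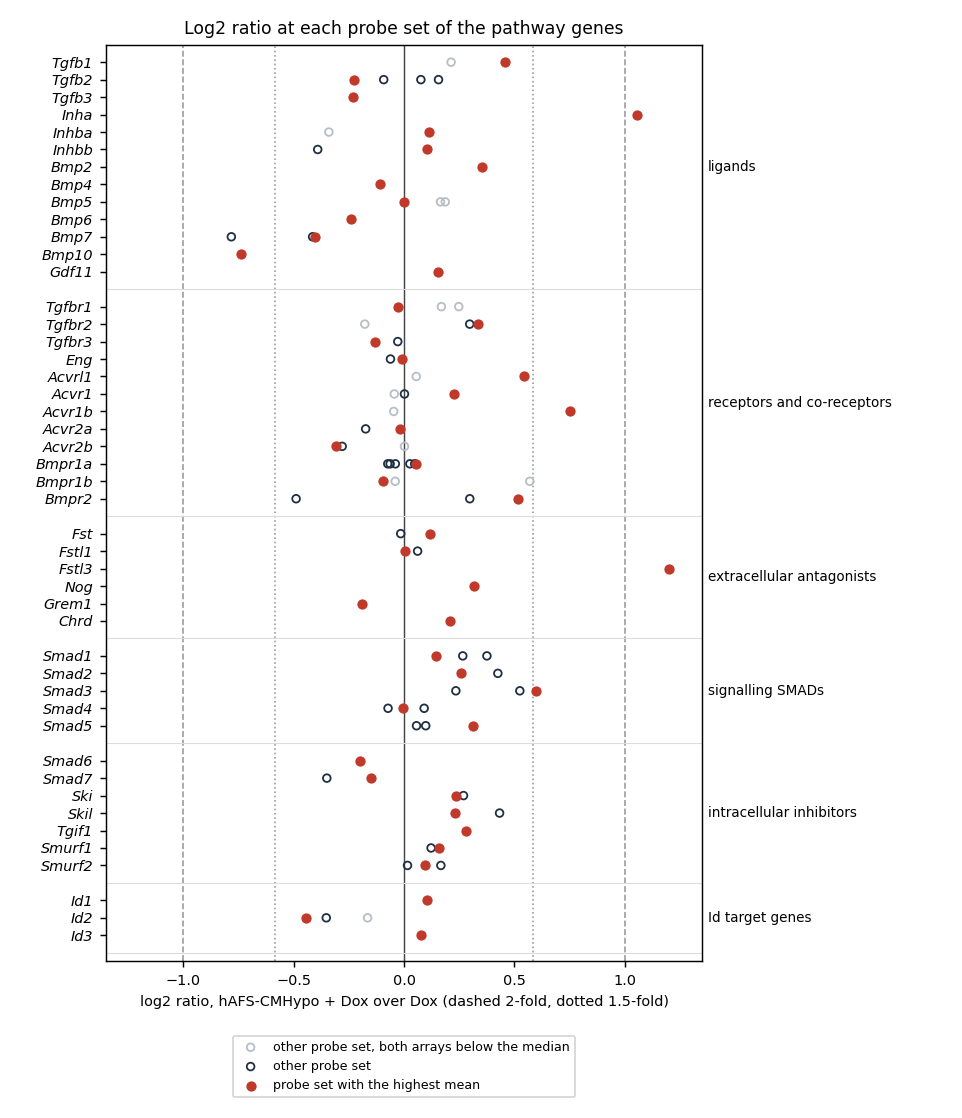
Log2 ratio (hAFS-CMHypo + Dox over Dox, horizontal axis) at each of the 97 probe sets of the 46 pathway genes, grouped by role. Red points are the brightest probe set, dark circles other probe sets and grey circles other probe sets below the median of all values on both arrays, and dashed and dotted lines mark 2-fold and 1.5-fold. The 3 points of *Bmp7* all lie left of 0, the 3 of *Smad3* all lie right of it, and those of *Bmpr2* lie on both sides.

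The rest of the pathway was read from lists of 91 further genes, of which 82 were measured. Of these, 8 were higher by 1.5-fold or more (9.76%, against 2.32% of all genes) and 0 were lower by it (1.52% of all genes). The study picked *Tgfbi* and *Tll1*, which are among the 8, as up-regulated on these arrays, so that they are not independent evidence of direction. The lists themselves were chosen with earlier results of these arrays known. The shares given for them, with or without those genes, are therefore not independent evidence either. Most of the 8 belonged to the response genes of TGF-β and activin, where 7 of 21 were higher by 1.5-fold or more (33.3%, against 2.32% of all genes). Beyond the probe-set SD 10 of the 21 were higher (47.6%, against 17.5% of all genes) and 2 lower (9.52%, against 15.5%). Their median log2 ratio was 0.20. *Tgfbi*, a matrix protein induced by TGF-β, had 9.96 against 7.89, a log2 ratio of 2.06 that held between 2.03 and 2.15 over 4 probe sets. *Bhlhe40*, a transcriptional repressor, had 9.54 against 8.59, a log2 ratio of 0.95. *Lox*, which crosslinks collagen, had 0.89 (as low as 0.17 among 3 probe sets), and *Ltbp2*, a matrix protein related to the binders of latent TGF-β, had 0.81. The other genes of the 7, named after their values were seen, were *Nox4*, an NADPH oxidase (0.74), *Junb*, an AP-1 subunit (0.69), and *Pmepa1*, a feedback inhibitor of SMADs (0.61). *Nox4* had 5.62 against 4.89, with a Dox value below the median of all values.

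Not all response genes lay that way. *Postn*, periostin of the fibroblast matrix, had 11.26 against 11.69, a log2 ratio of -0.43, and *Col1a1*, a collagen chain, had -0.29 (0.22 at its other probe set). *Acta2*, smooth muscle actin, and *Ccn2*, a matricellular protein that TGF-β induces, had log2 ratios of -0.01 and 0.01. Several of these genes respond to other signals as well. The list shares 4 genes with the fibroblast markers and 2 with the smooth muscle markers given below.

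Of the 7 response genes of BMP, 2 were higher (28.6%, against 17.5% of all genes) and 1 lower (14.3%, against 15.5%) beyond the SD. Their median log2 ratio was -0.02. *Atoh8*, a helix-loop-helix factor, had 0.33 and *Bambi*, a decoy receptor, had -0.23. *Msx1* and *Msx2*, homeobox factors, had 0.22 and 0.21, the former with -0.05 at its other probe set. Among 19 other extracellular regulators, 5 were higher (26.3%, against 17.5% of all genes) and 4 lower (21.1%, against 15.5%) beyond the SD. *Tll1*, a protease that cleaves the BMP antagonist chordin, had 6.51 against 4.94, a log2 ratio of 1.57, with a Dox value below the median. *Bmper*, a secreted BMP binder, had 10.73 against 10.17, or 0.55. *Ltbp4*, which holds latent TGF-β in the matrix, had 0.43, and *Dand5*, an antagonist of Nodal, had 0.29. The 4 lower genes were *Sost* (-0.48) and *Fstl4* (-0.47), both below the median on both arrays, *Ltbp1* (-0.25, and up to 0.54 among 3 probe sets) and *Wfikkn2* (-0.25).

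Of 7 other receptors and co-receptors, 4 were lower (57.1%, against 15.5% of all genes) and 0 higher (17.5% of all genes) beyond the SD. Their median log2 ratio was -0.23. *Hjv*, hemojuvelin, a BMP co-receptor of striated muscle and liver, had 8.96 against 9.53, a log2 ratio of -0.57, and the dimmer probe set gave -0.62. *Rgma*, a co-receptor of the same family, had -0.34, *Amhr2*, the receptor of anti-Müllerian hormone, had -0.27 (0.10 at another probe set) and *Bambi* had -0.23, while *Rgmb* had 0.18 and values from -0.19 to 0.43 over 6 probe sets. Of 14 other ligands, 0 were higher (17.5% of all genes) and 3 were lower (21.4%, against 15.5%) beyond the SD. The lower ligands were *Gdf3* (-0.58), *Gdf10* (-0.50) and *Lefty1* (-0.33). *Nodal*, a morphogen of the early embryo, had 0.12 (-0.43 at its other probe set) and *Amh*, anti-Müllerian hormone, had -0.10. *Gdf10* lay below the median of all values on both arrays, and *Gdf3* lay below it with hAFS-CMHypo + Dox. Of 16 other regulators inside the cell, 2 were higher (12.5%, against 17.5% of all genes) and 1 was lower (6.25%, against 15.5%) beyond the SD. They were *Zfyve9*, which brings SMADs to the receptor (0.24), *Trim33*, a SMAD4 ubiquitin ligase (0.24), and *Wwp1*, a ligase related to the SMURFs (-0.24, and 0.09 at another probe set). The repressor *Tgif2* had -0.18, and -0.53 at its other probe set.

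**Figure D4:**
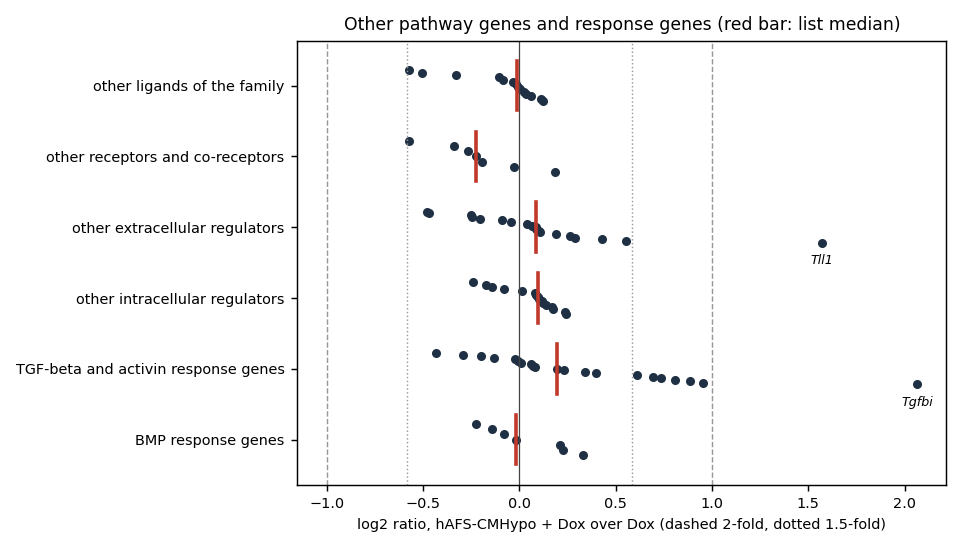
Log2 ratio (hAFS-CMHypo + Dox over Dox, horizontal axis) of each measured gene in 6 lists of other pathway and response genes, 1 point per gene at the brightest probe set. Red bars are list medians, and dashed and dotted lines mark 2-fold and 1.5-fold. Among the response genes of TGF-β and activin, 7 points lie at or beyond the upper dotted line and 0 beyond the lower one.

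The cells carried the markers of cardiomyocytes, with log2 values from 9.78 to 14.99 over the 10 markers with hAFS-CMHypo + Dox and from 10.05 to 15.05 with Dox. Their sum on the linear scale was 176280 and 190879. Such a sum is led by the markers with the brightest probe sets, and is given for each list only to set its arrays side by side. *Myl2*, ventricular myosin light chain, had 14.99 and 15.05 (log2 ratio -0.05), and the largest differences were those of *Pln*, phospholamban (-0.57), and *Myh7*, a myosin heavy chain (-0.27). Markers of other cells were present as well. The counts of markers beyond the SD given below stand beside 17.5% of all genes higher and 15.5% lower. Summed in the same way, the 10 fibroblast markers were at 16281 with hAFS-CMHypo + Dox and 16770 with Dox, and 3 were higher and 4 lower beyond the SD, with *Dcn* at 0.41, *Tcf21* at -1.03 (0.18 at its other probe set) and *Pdgfra* at 0.79 (-0.05 at the lowest of 3). The 6 smooth muscle and mural markers summed to 28345 and 27535, with 2 higher beyond the SD, *Cnn1* at 0.32 and *Pdgfrb* at 0.31. *Pdgfrb* had -0.03 at its other probe set. The 7 endothelial markers summed to 2266 and 2189, with *Emcn* at 0.05, 1 higher beyond it (*Vwf*, 0.24) and 1 lower (*Tek*, -0.22).

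The 6 macrophage markers summed to 4725 with hAFS-CMHypo + Dox and 4744 with Dox. Beyond the SD 4 of them were higher (66.7%, against 17.5% of all genes) and 0 lower (15.5% of all genes). *Cd14* was at 0.80 and *Ptprc* at 0.48 (-0.09 at its other probe set), and the median log2 ratio of the list was 0.33. *Lyz2* had -0.11, and with log2 values of 11.80 and 11.91 it makes up most of that sum, which therefore says little of the other 5. The 4 epicardial markers summed to 539 and 622, and 2 were higher and 2 lower, with *Msln* at 0.41 and *Upk3b* at -0.33 (0.04 at its other probe set). Of all these markers, *Myh11* of smooth muscle and *Vwf* of endothelium lay below the median of all values on both arrays. The part that changes in cell types have in the values of *Fstl3*, *Inha*, *Smad3* and the other pathway genes was not tested.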

How the data were processed

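Gene expression in mNVCM was measured on 2 Affymetrix mouse expression arrays, 1 for Dox and 1 for hAFS-CMHypo + Dox. The deposited values are log2 values that the authors made with RMA and quantile normalization, 1 per probe set. RMA is also named in the submitters' processing notes, and the sources used here give neither its software nor its version. The log2 scale was inferred from the range of the values. Quantile normalization makes the distributions of the arrays nearly alike, so a change shared by most genes would not show. RMA values near the floor of the scale understate differences.

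Of 45101 probe sets, 34958 were annotated with 1 gene symbol, 932 with several and 9211 with none. After 64 control probe sets were set aside, symbols were updated by Entrez ID with RefSeq on GRCm38.p6, which held 34741 of 34945. A gene took the log2 values of its brightest probe set. Genes were counted at 2-fold, the threshold in the methods of the paper, at 1.5-fold and beyond the probe-set SD, beside the same share of all genes. Groups came from the sample labels, no test was possible, and the counting step was tested on simulated data. The genes, their roles and the other lists were chosen with earlier results of these data known.

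Every listed gene could be named. All probe sets are given for those past 1.5-fold, where the highest-mean probe set or one with an array at or above the median counted. From each other pathway list up to 4 genes with the largest ratios and an array at or above the median were named, and from marker lists the marker with the highest value and up to 2 with the largest ratios. Genes outside this rule were named after their values were seen, such as *Gdf10*, *Nox4*, *Junb*, *Pmepa1*, *Postn*, *Col1a1*, *Acta2*, *Ccn2*, *Rgmb*, *Sost*, *Fstl4*, *Ltbp1*, *Wfikkn2* and *Upk1b*. The alternatives were 2 filters on signal (median and 25th percentile), centring, lowess correction (span 0.3), leaving out less specific probe set types, and the mean or the largest change of a gene's probe sets. Calculations were run with pandas 2.3.3 and numpy 2.4.6 in Python 3.11.15, the lowess fit with statsmodels 0.14.6 and plots with matplotlib 3.10.9.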

Additional observations from a re-analysis of the deposited data

How the results depend on the processing

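The counts of genes at 2-fold (2 higher and 0 lower) were the same under all 7 alternatives, and the median log2 ratio of the pathway genes stayed between 0.10 and 0.16. *Fstl3* and *Inha* have a single probe set each and pass both filters on signal. The filters and the choice among probe sets therefore could not change their values, and their place in the count is no check on them. With the mean of all probe sets as a gene's value, 2 genes in place of 4 were higher by 1.5-fold or more, since *Acvr1b* had a log2 ratio of 0.35 and *Smad3* of 0.45. With the probe set of the largest change, 2 genes in place of 1 were lower by 1.5-fold or more, as *Bmp7* had -0.78. No direction turned among the 6 genes past 1.5-fold at a probe set (*Fstl3*, *Inha*, *Acvr1b*, *Smad3*, *Bmp7* and *Bmp10*). For most of them the choice of probe set could not turn it. *Fstl3*, *Inha* and *Bmp10* have a single probe set, and those of *Smad3* and of *Bmp7* share a sign. No alternative read the dimmer probe set of *Acvr1b* alone, where the log2 ratio was -0.05. Among all 18193 genes, the number higher by 1.5-fold or more also fell with the mean of all probe sets, from 422 as reported to 299. The number of all genes lower by 2-fold or more was 39 as reported and 83 with the probe set of the largest change. By 1.5-fold or more these numbers were 277 and 535. No paired analysis was possible because each condition has 1 array, and no array could be left out. Low signal limits *Bmpr1b*, *Nog*, *Grem1* and *Bmp5*, which lay below the median of all values on both arrays. It also limits *Inha* and *Acvrl1*, which lay below that median with Dox.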
